A study of Rattus norvegicus with 8 samples.

Results

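The genes described here were 4 of the 21549 Ensembl gene IDs counted in rat heart: ENSRNOG00000029886 (Hba1), ENSRNOG00000047321 (Hba-a2), ENSRNOG00000058105 (Hbb) and ENSRNOG00000000167 (Alas2). They were chosen by ID as transcripts of red blood cells and their precursors, and all 4 were found in every library. RNA was sequenced from hearts of Sprague Dawley rats aged 3 months, of which 4 had been held under chronic hypoxia, that is, low oxygen kept up over time, and 4 had been kept in normoxia. Each animal gave 1 library. The oxygen level, the length of the exposure, the sex of the rats, the part of the heart and any rinsing of the tissue are not given in the labels. No genetic change is named in the labels of either group.

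Haemoglobin, the oxygen carrier of blood, is built of alpha-globin and beta-globin chains, each holding a haem group. Alas2 encodes the erythroid 5-aminolevulinate synthase, which makes the first precursor of haem in the mitochondria of developing red cells. Mature mammalian red cells have no nucleus, and young ones that have just entered the blood, the reticulocytes, still carry globin and Alas2 mRNA. In a whole piece of heart these transcripts are commonly read as a sign of how much blood, reticulocytes included, the sample held. Chronic hypoxia is known to raise erythropoietin and the making of red cells in mammals. In bulk tissue, fewer cells of a type and less RNA per cell cannot be told apart.

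The names of the 4 rows came with the list of IDs, since neither the count files nor the gene table used here pairs Ensembl IDs with symbols. In that RefSeq table (assembly GRCr8) the names Hba1 and Hba-a2 each belong, as symbol or synonym, to the same 2 genes, Hba-a1 and Hba-a2, so which alpha-globin row is which gene cannot be told apart. The stretches of 250 bases before the RefSeq start of these 2 genes and of Hbb are shown as a description, as the alpha pair is nearly identical. Any link between these sequences and the levels in the hearts was not tested. They lie on the minus strand at chr10:15842581-15842830 (Hba-a1), chr10:15829139-15829388 (Hba-a2) and chr1:167663722-167663971 (Hbb) in GRCr8, which is not the build of the counts, and are written 5′ to 3′. Capitals mark the letters CCAAT on either strand, the letters CACCC on either strand, the letters GATAA on either strand, and the letters ATAAA on the gene's strand.
Hba-a1: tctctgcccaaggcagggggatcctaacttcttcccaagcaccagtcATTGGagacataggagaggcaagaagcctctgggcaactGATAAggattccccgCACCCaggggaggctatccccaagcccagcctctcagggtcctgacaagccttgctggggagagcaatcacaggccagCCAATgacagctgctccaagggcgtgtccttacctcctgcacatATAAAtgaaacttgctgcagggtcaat
Hba-a2: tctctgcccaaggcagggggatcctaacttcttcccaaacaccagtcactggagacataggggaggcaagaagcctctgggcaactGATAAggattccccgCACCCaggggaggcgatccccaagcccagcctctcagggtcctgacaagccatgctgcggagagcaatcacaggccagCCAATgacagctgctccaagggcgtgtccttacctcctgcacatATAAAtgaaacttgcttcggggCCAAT
Hbb: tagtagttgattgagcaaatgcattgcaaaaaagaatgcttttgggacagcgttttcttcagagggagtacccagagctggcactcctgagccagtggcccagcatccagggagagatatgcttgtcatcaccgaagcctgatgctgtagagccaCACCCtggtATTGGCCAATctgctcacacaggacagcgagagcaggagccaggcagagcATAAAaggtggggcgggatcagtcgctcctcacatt

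The alpha-globin stretches had the same base at 241 of 250 positions (96.4%). Counted back from the start, with -1 as the last base before it, both alpha stretches held GATAA at positions -164 to -160, CACCC at -149 to -145, CCAAT at -71 to -67 and ATAAA at -27 to -23. Hba-a2 also had CCAAT at -5 to -1, and Hba-a1 had its reverse complement at -203 to -199. Hbb held CACCC at -95 to -91, CCAAT at -81 to -77 with its reverse complement directly before it, and ATAAA at -36 to -32. The letters GATAA were not in the Hbb window. Among 33469 RefSeq windows of the same length, 34.0% held a CCAAT, 49.2% held a CACCC, 23.5% held a GATAA on either strand and 25.2% held an ATAAA on the gene's strand. Boxes of these kinds are known from globin promoters, but a match is a description of the sequence and not a site of binding. The RefSeq window for Alas2 lies inside the gene's own record and is not shown.

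Library totals ran from 26229304 to 32160710 counts. TMM scaling factors (trimmed mean of M values, which set libraries to a common scale) were 0.895 to 0.995 in hypoxia libraries and 1.03 to 1.08 in normoxia libraries. The first principal component of the tested genes other than these 4 held 49.1% of the variance. It lay at 25.3 to 45.5 in hypoxia libraries and at -36.2 to -29.6 in normoxia libraries. Hypoxia libraries 1 and 2 stood apart from hypoxia libraries 3 and 4 on the second component. On the second principal component of log2 CPM (library-scaled counts), computed without the 4 genes and holding 20.9% of the variance, they lay at -37.8 and -29.8, hypoxia libraries 3 and 4 lay at 29.2 and 27.7, and normoxia libraries 1 to 4 lay between -0.934 and 8.08. Hypoxia libraries 1 and 2 were also those in which the 4 genes were lowest, and this was known when the pairs were chosen. The group difference of each of the 4 genes is given with and without these pairs. The labelled tissue could not be checked against heart markers, for want of gene names.

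Globin and Alas2 transcripts did not differ between the groups in a uniform way. In 2 of the 4 hypoxic hearts all 4 transcripts lay far below every normoxic heart. In the other 2 they lay within the normoxic range as counts per library total. On the TMM scale, Alas2 in both of those hearts and Hbb in hypoxia library 4 lay above every normoxic heart. As averages the 4 genes stood at 0.708 to 0.816 of the normoxia level by fitted fold. On the log2 scale this difference was smaller than the SD between hypoxic hearts for each of the 4 genes, and for Hba1 and Hbb it was larger than the SD between normoxic hearts. None of the 4 passed the test (0 of 4 at a Benjamini-Hochberg adjusted p under 0.05 in edgeR's quasi-likelihood test, and 0 of 4 at an unadjusted p under 0.05), where 33.0% of 14214 genes tested were called, 17.7% higher and 15.3% lower in hypoxia. DESeq2, which called 5179 genes, and limma-voom, which called 4654 genes, also called none of the 4.

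Together the 3 globin rows held little of each library. They took 0.0412%, 0.0548%, 0.174% and 0.171% of all counts in hypoxia libraries 1 to 4, against 0.177%, 0.213%, 0.134% and 0.148% in normoxia libraries 1 to 4. The group means were 0.110 ± 0.0721% in hypoxia and 0.168 ± 0.0350% in normoxia (SD, n = 4 each). The highest hypoxia share was 4.21 times the lowest, and the highest normoxia share was 1.59 times the lowest. Adding Alas2 changed little, with 0.111 ± 0.0726% in hypoxia and 0.169 ± 0.0352% in normoxia (SD, n = 4 each). With library totals and scaling computed without the 4 genes, their log2 fold changes were -0.47 for Hba1, -0.29 for Hba-a2, -0.50 for Hbb and -0.31 for Alas2, the same to 2 decimals as with them.

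Hba1, an alpha-globin chain, had 248, 273, 860 and 835 CPM, here counts per 1000000 counts of the library total, in hypoxia libraries 1 to 4, against 830, 1094, 707 and 826 CPM in normoxia libraries 1 to 4. Hypoxia libraries 1 and 2 were below all normoxia libraries, hypoxia libraries 3 and 4 were within their range, and the groups overlapped. The means were 554 ± 339 CPM in hypoxia and 864 ± 164 CPM in normoxia (SD, n = 4 each). The log2 fold change, hypoxia over normoxia on the TMM scale, was -0.47 (SE 0.39, 95% interval -1.34 to 0.40, edgeR adjusted p = 0.385).

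Hba-a2, the other alpha-globin row, had 101, 166, 512 and 452 CPM in hypoxia libraries 1 to 4, against 458, 567, 341 and 339 CPM in normoxia libraries 1 to 4. Again hypoxia libraries 1 and 2 were the lowest of all 8, while hypoxia libraries 3 and 4 lay among the normoxia values. The means were 308 ± 204 CPM in hypoxia and 426 ± 109 CPM in normoxia (SD, n = 4 each), and the log2 fold change was -0.29 (SE 0.44, 95% interval -1.28 to 0.69, edgeR adjusted p = 0.640). As near-identical copies can share reads, the split of counts between the alpha rows is uncertain.

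Hbb, the beta-globin chain, had 63.5, 110, 364 and 427 CPM in hypoxia libraries 1 to 4, against 478, 468, 293 and 310 CPM in normoxia libraries 1 to 4. It showed the widest spread of the globins in hypoxia, where the highest library was 6.72 times the lowest, against 1.63 times in normoxia. The means were 241 ± 181 CPM in hypoxia and 387 ± 99.3 CPM in normoxia (SD, n = 4 each). Its log2 fold change was -0.50 (SE 0.51, 95% interval -1.64 to 0.65, edgeR adjusted p = 0.484).

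Alas2 had 2.27, 2.92, 13.3 and 12.4 CPM in hypoxia libraries 1 to 4, against 13.1, 13.5, 7.94 and 8.71 CPM in normoxia libraries 1 to 4. These rested on 66, 94, 348 and 387 counts in hypoxia and on 409, 382, 228 and 259 counts in normoxia. As with the globins, hypoxia libraries 1 and 2 were the lowest of the 8 and the groups overlapped. The means were 7.72 ± 5.93 CPM in hypoxia and 10.8 ± 2.90 CPM in normoxia (SD, n = 4 each), and the log2 fold change was -0.31 (SE 0.51, 95% interval -1.44 to 0.81, edgeR adjusted p = 0.663).

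**Figure D1:**
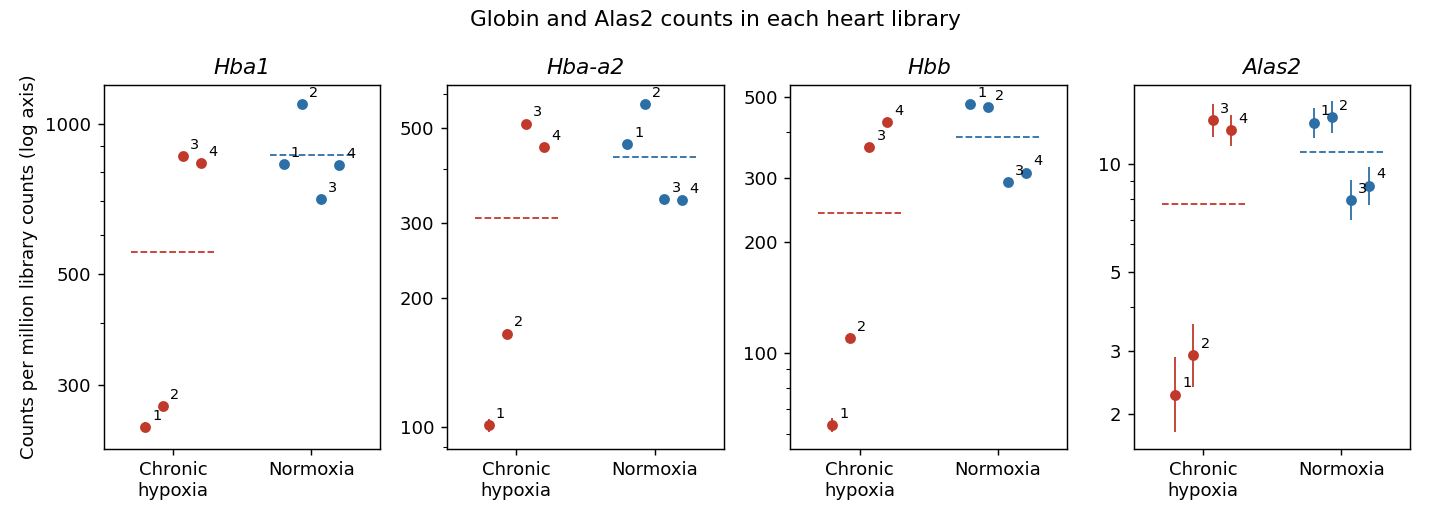
CPM of library totals (log axis) of Hba1, Hba-a2, Hbb and Alas2 in each library, with chronic hypoxia left and normoxia right. Points are single hearts numbered by replicate, bars are 95% Wilson intervals of the count, and dashed lines are group means; hypoxia libraries 1 and 2 lie below all other points in each panel.

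The low values of hypoxia libraries 1 and 2 exceeded counting error. The half-width of the 95% Wilson interval of a single value was 1.12% to 2.31% of it for Hba1, 1.55% to 3.61% for Hba-a2, 1.60% to 4.56% for Hbb and 9.70% to 24.3% for Alas2. For Alas2, the least counted, the intervals were 1.78 to 2.89 CPM in hypoxia library 1 and 2.39 to 3.58 CPM in hypoxia library 2, against 6.98 to 9.04 CPM in normoxia library 3, the lowest in normoxia. The 2 low hearts did not differ from each other beyond these intervals in Alas2, whereas in Hbb they did, at 60.7 to 66.5 CPM in hypoxia library 1 and 106 to 113 CPM in hypoxia library 2. Such intervals cover counting error only.

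Relative to the normoxia mean, in CPM of library totals without TMM scaling, the transcripts were unequally low in these 2 hearts. Hbb stood at 0.164 and 0.283 of the normoxia mean in hypoxia libraries 1 and 2. Alas2 stood at 0.210 and 0.270, Hba-a2 at 0.237 and 0.388, and Hba1 at 0.286 and 0.316. In hypoxia libraries 3 and 4 the same ratios were 0.940 and 1.10 for Hbb, 1.23 and 1.15 for Alas2, 1.20 and 1.06 for Hba-a2, and 0.995 and 0.966 for Hba1. TMM factors were lower in every hypoxia library than in any normoxia library, so all of these ratios would be higher on the TMM scale. Hypoxia library 1 was the lowest of all 8 for each of the 4 genes.

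The estimate of the group difference turned on which hypoxic hearts were included. Without hypoxia libraries 1 and 2 the log2 fold changes were 0.13 (SE 0.15) for Hba1, 0.34 (SE 0.18) for Hba-a2, 0.20 (SE 0.20) for Hbb and 0.41 (SE 0.20) for Alas2, and 0 of 4 were called (edgeR adjusted p from 0.135 to 0.500, 40.7% of 14684 genes called). Without hypoxia libraries 3 and 4 they were -1.55 (SE 0.17) for Hba1, -1.48 (SE 0.27) for Hba-a2, -1.97 (SE 0.29) for Hbb and -1.87 (SE 0.27) for Alas2. There 4 of 4 were called lower (edgeR adjusted p from 2.61e-04 to 0.00270), where 18.0% of 14566 genes tested were called lower. Hypoxia libraries 1 and 2 were the hearts in which these 4 genes were lowest. As the pairs were chosen with the values of the libraries known, the turn of sign and the calls were set largely by that choice. They describe these hearts and do not test the exposure. With 1 library left out at a time, 3315 to 4758 genes were called and none of the 4 was among them. Every estimate stayed below 0 in these fits, though Hba-a2 came to -0.00464 and Alas2 to -0.0114 without hypoxia library 1.

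**Figure D2:**
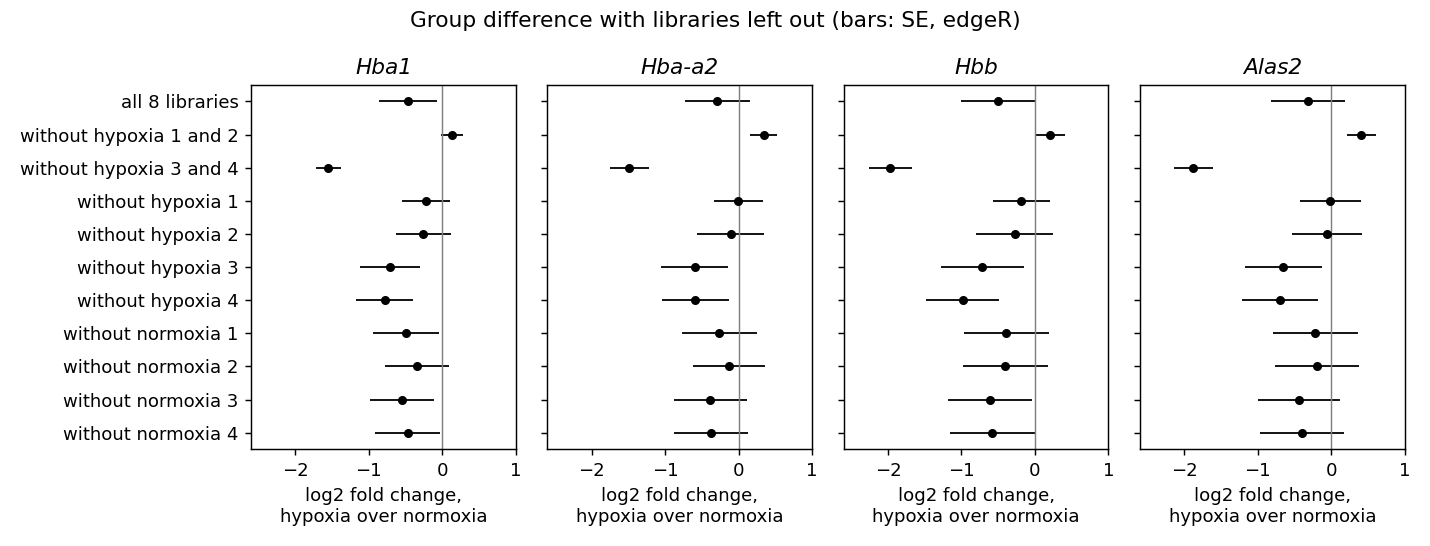
Log2 fold change of each gene, chronic hypoxia over normoxia, from edgeR with all 8 libraries and with libraries left out as named on the vertical axis; bars are SE. The estimates lie between -1.97 and -1.48 without hypoxia libraries 3 and 4 and between 0.13 and 0.41 without hypoxia libraries 1 and 2.

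The spread of the 4 transcripts between hearts was wide in hypoxia. The SD of log2 CPM over the 4 hypoxia libraries was 0.99 for Hba1, 1.14 for Hba-a2, 1.35 for Hbb and 1.33 for Alas2, against 0.25, 0.34, 0.36 and 0.37 over the 4 normoxia libraries. The median tested gene had an SD of 0.23 in hypoxia and 0.13 in normoxia, and 78.7% of tested genes had the larger SD in hypoxia. By this SD the 4 genes ranked 390 (Hba1), 254 (Hba-a2), 143 (Hbb) and 150 (Alas2) of 14214 in hypoxia, against 2888, 1808, 1634 and 1502 in normoxia. In hypoxia all 4 were among the upper 2.74% of tested genes, and in normoxia among the upper 20.3%.

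**Figure D3:**
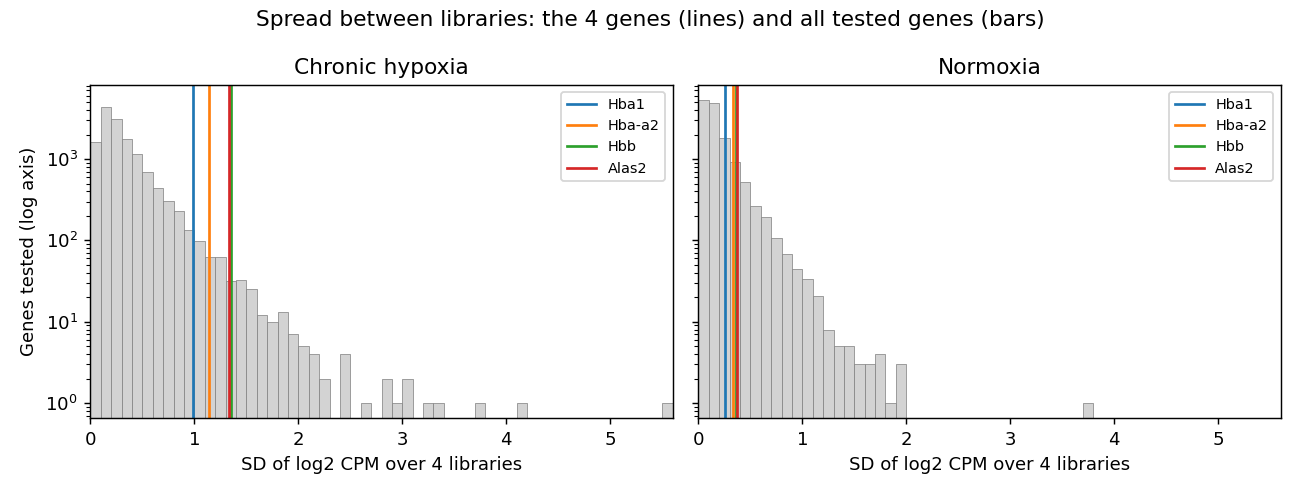
Standard deviation of log2 CPM over the 4 libraries of a group, for all 14214 tested genes (grey bars, number of genes on a log axis) and for the 4 genes (coloured lines), with chronic hypoxia left and normoxia right. The lines lie at 0.99 to 1.35 in hypoxia and at 0.25 to 0.37 in normoxia.

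Per length, the order of the levels was the same in 8 of 8 libraries, with Hba1 above Hba-a2, Hba-a2 above Hbb and Hbb above Alas2 in FPKM (CPM divided by the gene-model length in kilobases). Hba1 averaged 996 ± 610 FPKM in hypoxia and 1555 ± 294 FPKM in normoxia (SD, n = 4 each). Hba-a2 averaged 552 ± 367 and Hbb 365 ± 274 FPKM in hypoxia, against 765 ± 196 and 587 ± 151 FPKM in normoxia. Alas2 was far lower, at 4.41 ± 3.39 FPKM in hypoxia and 6.18 ± 1.66 FPKM in normoxia. In hypoxia the ranges of mean ± SD of neighbouring globins overlapped, and in normoxia those of Hba-a2 and Hbb overlapped while Hba1 lay above Hba-a2. By mean FPKM the globins ranked 47, 97 and 154 of 21549 genes in hypoxia, against 31, 63 and 81 in normoxia, in the order Hba1, Hba-a2, Hbb.

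The alpha to beta balance, the sum of Hba1 and Hba-a2 over Hbb in FPKM, was 6.52, 4.74, 4.47 and 3.58 in hypoxia libraries 1 to 4, against 3.20, 4.21, 4.25 and 4.46 in normoxia libraries 1 to 4. The heart with the least globin, hypoxia library 1, had the highest ratio, and the groups overlapped, with means of 4.82 ± 1.23 in hypoxia and 4.03 ± 0.563 in normoxia (SD, n = 4 each). The gene table lists further beta-globin genes, among them Hbb-b1, Hbb-b2 and Hbb-bs, whose rows were not analysed here, so this ratio is not that of all alpha to all beta transcripts. The ratio of Hba1 to Hba-a2 was 2.45, 1.65, 1.68 and 1.85 in hypoxia libraries 1 to 4, against 1.82, 1.93, 2.07 and 2.44 in normoxia libraries 1 to 4, again with overlapping groups.

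The ratio of Alas2 to the globins spanned less than either did alone. Alas2 FPKM per 1000 FPKM of the 3 globin rows was 1.79, 1.75, 2.51 and 2.40 in hypoxia libraries 1 to 4, against 2.46, 2.10, 1.95 and 1.94 in normoxia libraries 1 to 4. Hypoxia libraries 1 and 2 were the lowest of the 8, and the group means were 2.12 ± 0.399 in hypoxia and 2.11 ± 0.242 in normoxia (SD, n = 4 each). Their Alas2 values rested on 66 and 94 counts, with Wilson half-widths of 24.3% and 20.3% of the value. The distance of these 2 ratios from those of normoxia libraries 3 and 4 was thus within counting error. The highest hypoxia ratio was 1.44 times the lowest, where Alas2 itself spanned 5.85 times in CPM.

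**Figure D4:**
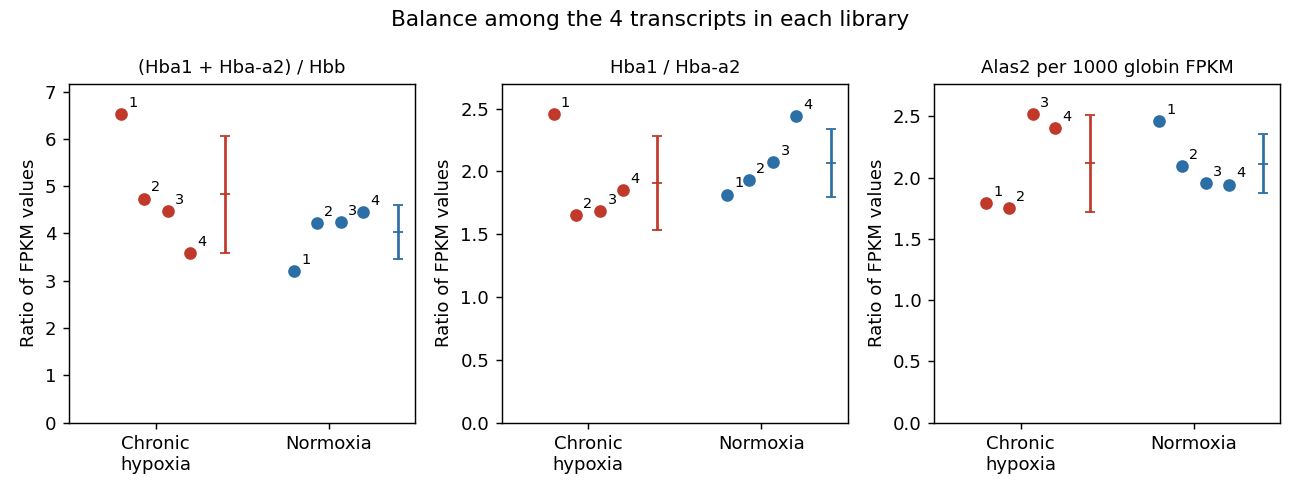
Ratios of FPKM values in each library: alpha-globin rows over Hbb, Hba1 over Hba-a2, and Alas2 per 1000 globin FPKM, with chronic hypoxia left and normoxia right. Points are single hearts numbered by replicate, and bars at the side are the mean and SD of 4 libraries; the groups overlap in each panel, and the alpha to beta ratio is highest, at 6.52, in hypoxia library 1.

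All 4 genes shared one pattern on the TMM scale, with hypoxia libraries 1 and 2 below every normoxia library and hypoxia libraries 3 and 4 not below the lowest of them. This pattern, described after the values were seen, was found in 684 of 14214 tested genes (4.81%), and 182 genes (1.28%) had hypoxia libraries 3 and 4 at least 2-fold above both others, among them the 4 genes. On the TMM scale, Alas2 had 13.3 and 13.9 CPM in hypoxia libraries 3 and 4, above the normoxia maximum of 12.5 CPM. Hbb had 477 CPM in hypoxia library 4, above the normoxia maximum of 445 CPM, and 366 CPM in hypoxia library 3, within the normoxia range. The alpha-globin rows lay within the normoxia range in hypoxia libraries 3 and 4. Transcripts of one cell type are not independent of one another. Over the 6 libraries other than hypoxia 1 and 2, Pearson's r of log2 CPM between pairs of the 4 genes was 0.722 to 0.958 and Spearman's rho 0.543 to 0.886, given as a description.

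Among 12661 genes that averaged 1 CPM or more, those most like Hbb and Alas2 across the libraries were ranked by Pearson's r of log2 CPM over all 8, a measure set largely by the 2 low hearts. The gene nearest to Hbb was Alas2 (r = 0.985), followed by Hba-a2 (r = 0.982). Outside the 4 genes the nearest to Hbb were ENSRNOG00000005955 (r = 0.981, rho = 0.905, and r = 0.823 over the 6 other libraries) and ENSRNOG00000045989 (r = 0.980, rho = 0.929, and r = 0.944 over 6). The nearest to Alas2 were ENSRNOG00000000885 (r = 0.993, rho = 1, and r = 0.951 over 6) and ENSRNOG00000045989 (r = 0.993, rho = 0.976, and r = 0.976 over 6). The same pair was nearest to Alas2 when deviations from the group means were used (r = 0.996 and 0.995), while for Hbb these were ENSRNOG00000043167 (r = 0.994) and ENSRNOG00000010996 (r = 0.991). By these deviations the 4 genes were not each other's nearest. Alas2, Hba-a2 and Hba1 ranked 5, 9 and 40 in likeness to Hbb, at r = 0.987, 0.986 and 0.963. Hbb, Hba-a2 and Hba1 ranked 11, 15 and 17 in likeness to Alas2, at r = 0.987, 0.983 and 0.981. High values of r were thus common among these deviations. The deviations of Hbb and Alas2 were widest in hypoxia, so these values too were set largely by the hypoxia libraries. ENSRNOG00000045989 averaged 14.5 CPM and ENSRNOG00000000885 averaged 10.2 CPM over the 8 libraries, near the level of Alas2 (9.27 CPM). Of these 5 unnamed genes ENSRNOG00000043167 was called (edgeR adjusted p = 0.0213), at a log2 fold change of 0.72 with an SE of 0.20.

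Measures of whole libraries were set beside the 4 transcripts. At an equal depth, hypoxia libraries 1 and 2 had at least 1 count for 17391 and 17257 genes, hypoxia libraries 3 and 4 for 17914 and 17819, and normoxia libraries 1 to 4 for 17896 to 17990. The number of detected genes and the second principal component separated the same 2 hearts as the globins, and their part in the result was not tested. The mean gene-model length per count, which was shorter in hypoxia, did not set these hearts apart, at 2268 and 2261 bp in hypoxia libraries 1 and 2, 2375 and 2220 bp in hypoxia libraries 3 and 4, and 2596 to 2628 bp in normoxia. Markers of leukocytes, platelets and other erythroid genes could not be set beside them, as their rows carry no names.

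**Figure D5:**
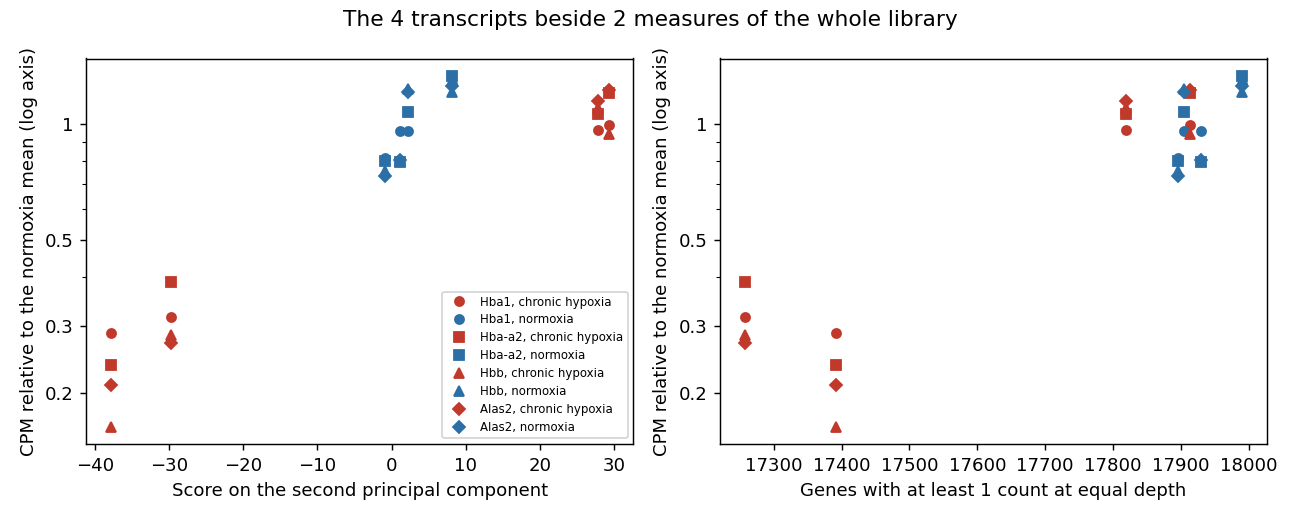
CPM of library totals of each gene relative to its normoxia mean (log axis) against the library's score on the second principal component (left) and the number of genes with at least 1 count at equal depth (right). Symbols are genes and colours are groups; hypoxia libraries 1 and 2 lie apart on both horizontal axes and at 0.164 to 0.388 on the vertical axis.

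The median group difference of tested genes varied with the length of their gene models. Mean length per count was shorter in every hypoxia library than in any normoxia library, so an effect of length cannot be told apart from the exposure. The globin models of 556, 557 and 660 bp belonged to the shortest length decile of tested genes (49 to 889 bp), where the median log2 fold change of 1422 tested genes was 0.35, and Alas2, at 1749 bp, belonged to the decile from 1644 to 1972 bp, whose median was 0.09. After each library's trend with length was removed, the log2 fold changes were -0.66 for Hba1, -0.48 for Hba-a2, -0.70 for Hbb and -0.41 for Alas2. None of them was called (edgeR adjusted p from 0.278 to 0.580), where 3831 genes were called in that fit. Scaling by library totals alone, which shifted the median of all tested genes to -0.17, gave -0.64, -0.47, -0.68 and -0.49 in the same order. These were also uncalled (edgeR adjusted p from 0.213 to 0.466), where 5296 genes were called with that scaling.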

How the data were processed

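The authors deposited, for each library, read counts per gene that were not normalized and FPKM values, which divide a count by the library total and the gene-model length. The submitters' processing notes name, with no roles, HTSeq 0.6.0, HISAT2 2.1.0, bcl2fastq, Bowtie2 2.2.3 and build rn6. The annotation release, strand setting and treatment of multi-mapped reads are not stated there, so reads of near-identical globin copies and of antisense or overlapping genes cannot be separated. Count divided by FPKM and library total gave each gene-model length.

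Counts were fitted over all genes with edgeR 4.0.16 in R 4.3.3: filterByExpr with a minimum count of 10, which kept all 4 genes, TMM scaling, the quasi-likelihood test with group as the only term, and Benjamini-Hochberg adjustment over 14214 genes, with calls at 0.05. The script was tested on simulated data. Alternatives used DESeq2 1.42.0, limma 3.58.1 (on voom values and on log2(FPKM + 1) and log2(FPKM + 0.1)), other scalings and filters, and libraries left out. Log2 CPM used a prior count of 2, and thinning used seed 20240501. Intervals of single values were Wilson intervals from scipy 1.17.1. Figures were drawn with matplotlib 3.10.9.

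The members, gene lists and tests were chosen with earlier results of these data known. Named genes were the 4 members, then the 2 genes nearest to Hbb and to Alas2 by Pearson's r. The 10 gene lists could not be tested, because 0 of 21549 IDs matched the gene table (GRCr8). Promoter sequences are from RefSeq, matched by symbol. Each library was taken as 1 animal, since the labels count 4 rats a group.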

Additional observations from a re-analysis of the deposited data

How the results depend on the processing

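Log2 fold changes are given in the order Hba1, Hba-a2, Hbb, Alas2. The sign turned without hypoxia libraries 1 and 2 together (0.13, 0.34, 0.20 and 0.41). The 4 genes passed the threshold without hypoxia libraries 3 and 4 together (-1.55, -1.48, -1.97 and -1.87). These were the 2 of 25 alternatives that changed a direction or a call, and fewer hearts entered each. Both pairs were chosen with the values of the libraries known, so these calls do not test the exposure. Leaving out 1 library at a time gave -0.78 to -0.22, -0.60 to -0.00464, -0.98 to -0.18 and -0.70 to -0.0114. The other 15 alternatives gave -0.86 to -0.45, -0.74 to -0.28, -1.06 to -0.48 and -0.84 to -0.30, with adjusted p from 0.123 to 0.742; the lowest values came from limma on log2(FPKM + 0.1), and the cause was not tested. With the replicate number as a block they were -0.69, -0.56, -0.86 and -0.61 (edgeR adjusted p from 0.242 to 0.476). Same-number correlations of -0.0847 to 0.0187 gave no sign of pairing in expression, but cannot show whether the animals were paired in the design. All genes called numbered 3315 to 5982 over the alternatives. Calls higher and lower in hypoxia were 2516 and 2177 as reported, 1426 and 3870 when scaled by totals, 1195 and 3704 for limma with log2(FPKM + 1), and 1195 and 3688 with log2(FPKM + 0.1). As a share of summed FPKM the 4 genes held 0.264 ± 0.175% in hypoxia and 0.438 ± 0.0921% in normoxia (SD, n = 4 each). At 66 to 409 counts a library, depth limits Alas2 most.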

Other observations

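The mirror of the pattern shared by the 4 genes was as frequent over the tested genes. In 682 of 14214 genes (4.80%), hypoxia libraries 1 and 2 lay above every normoxia library and hypoxia libraries 3 and 4 not above the highest, and in 684 (4.81%) they lay below in the way the globins did. In 3866 genes (27.2%) hypoxia libraries 1 and 2 both lay below every normoxia library, whatever the others did. The groups did not overlap in 4884 genes (34.4%), and none of the 4 transcripts was among them.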
